A study of Rattus norvegicus with 88 samples.

Results

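The miR-127, miR-136 and miR-433 cluster is a group of imprinted miRNAs that lie around Rtl1 in the Dlk1-Dio3 region of the rat genome. Its members here are rno-miR-337*, rno-miR-431, rno-miR-433, rno-miR-127, rno-miR-127*, rno-miR-434, rno-miR-434*, rno-miR-136, rno-miR-136* and rno-miR-341, which are 10 of the 677 miRNAs on the array and are written below without the prefix for rat. They were chosen by name and position, and the rule used no measured value. All 10 were detected on at least 1 of the 88 arrays and so were among the 314 miRNAs that entered the statistical tests, of which 41 others were on a list of Dlk1-Dio3 miRNAs drawn up by name. That list is not complete, as miR-666 and miR-1188, for example, lie in the region and are not on it.

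The Dlk1-Dio3 region is imprinted, which means that the parental origin of a chromosome decides which of its genes are used. Dlk1, Rtl1 and Dio3 encode proteins and are expressed from the paternal copy, whereas Meg3 and the miRNAs are made from the maternal copy. Several of the miRNAs are transcribed antisense to Rtl1, a retrotransposon-derived gene known for its part in the placenta, and are fully complementary to its transcript, so that they can direct its cleavage. A hairpin precursor is cut into a duplex of 2 arms, and by the naming used on the array the star marks the arm that was thought to be the less abundant.

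Livers came from male and female F344 (Fischer) rats that received no treatment. There were 9 ages, namely 2 weeks, 5 and 6 weeks, 8 weeks, 15 and 21 weeks, and then 52 and 78 weeks and 104 weeks. Each sex and age had 5 rats, except for 4 males at 5 weeks and 4 at 104 weeks, for 45 females and 43 males. RNA from a small piece of frozen liver of 1 animal, ground and homogenized without separating its cell types, was hybridized to each one-colour array, and values are given as normalized signal, the total signal of a miRNA over its 20 spots divided by the 75th percentile of the expressed miRNAs on the same array. As RNA came from unseparated liver tissue, a larger number of cells that express a miRNA cannot be told apart from more of that miRNA in each cell.

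Mature sequences of 8 members were matched in RefSeq (build GRCr8), where all 7 hairpins lie on the plus strand of chromosome 6 within 26769 bases, from Mir337 at chr6:134321142-134321238 to Mir341 at chr6:134347815-134347910. They are shown in chromosomal order because this is also the order of the results. The capitals mark the seed, bases 2 to 8 counted from the 5′ end, which directs pairing with target transcripts.
miR-337*: cGGCGUCAugcaggaguugau
miR-431: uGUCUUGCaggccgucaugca
miR-433: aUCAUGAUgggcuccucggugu
miR-127: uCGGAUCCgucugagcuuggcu
miR-434: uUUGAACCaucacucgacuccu
miR-434*: aGCUCGACucaugguuugaacca
miR-136*: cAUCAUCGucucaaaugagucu
miR-341: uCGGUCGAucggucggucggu

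The 8 sequences carry 8 different seeds, and none of these seeds was found in another of the 724 rat mature sequences of the same table. The hairpins of miR-431, miR-433, miR-127, miR-434 and miR-136 lie within the span of Rtl1, with Mir431 at chr6:134326449-134326562, Mir433 at chr6:134327358-134327450, Mir127 at chr6:134328454-134328550, Mir434 at chr6:134330402-134330482 and Mir136 at chr6:134331335-134331416. The hairpins of miR-337* and miR-341 lie outside it, upstream and downstream. Both arms of miR-434 contain the run uuugaacca of 9 bases, so the targets of both sets of probes share it.

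Hepatic expression of the whole cluster was a feature of 2 weeks of age. Of the 100 values of the 10 members on the 10 arrays of 2-week-old rats, 89 were detected, of which 41 were among the 50 female and 48 among the 50 male values. On the 78 arrays of rats from 5 to 104 weeks of age, 8 of 780 values were detected, on 3 arrays. A total of 6 members (miR-337*, miR-431, miR-127, miR-434, miR-136 and miR-136*) were detected on every 2-week array, and 5 members (miR-337*, miR-431, miR-433, miR-127* and miR-434*) on no array of an older rat.

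**Figure D1:**
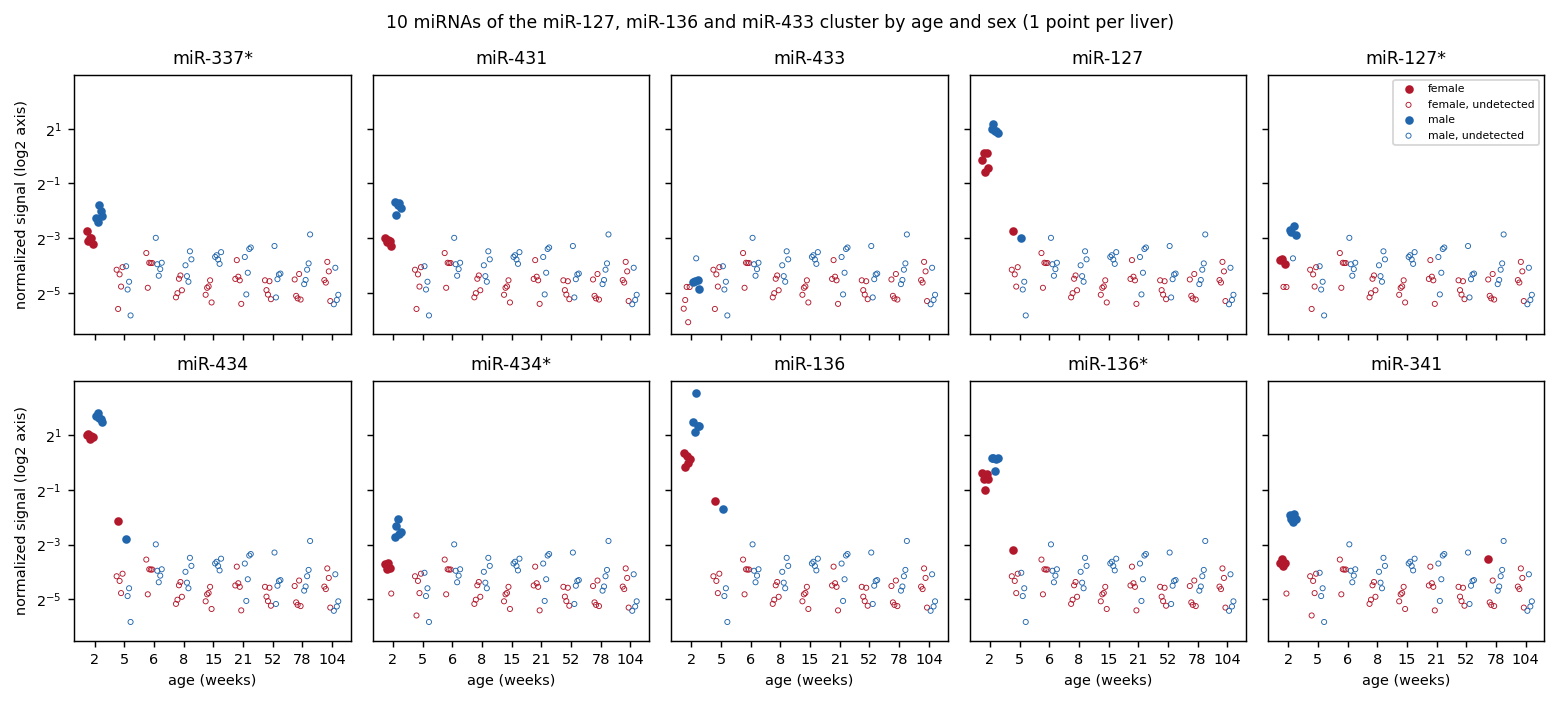
Normalized signal (log2 axis) of each of the 10 miRNAs against age in weeks, with 1 point for each liver, females in red and males in blue, where filled points were detected and open points show the lowest value detected on that array for a miRNA that was not. Filled points stand almost entirely at 2 weeks of age, with 7 at 5 weeks and 1 at 78 weeks.

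In young against adult rats (2 weeks against 5 to 21 weeks, limma, adjusted p under 0.05 and at least 1.5-fold), 9 of the 10 members were higher in young females, all but miR-433, where 16.9% of the expressed miRNAs were called higher and 39.8% in either direction. In males all 10 members were higher in young rats, where 19.7% of the expressed miRNAs were higher and 49.7% were called in either direction. The 5 members detected at 2 weeks only had every older value at the same floor, so they could not come out lower in young rats. Young against old rats (52 to 104 weeks) gave the same counts, with 9 members higher in females and 10 in males, where 20.4% and 20.1% of the expressed miRNAs were called higher. The median log2 difference of the members between young and adult rats was 3.31 in females and 4.45 in males, beside -0.13 in both sexes over the 314 expressed miRNAs. These medians count undetected values at the lowest normalized value of the study (0.0120), so they depend on this floor. The calls of some weak members rest on it too. That of miR-433 in males does, at a mean below the average of the lowest values that the adult male arrays detected. So do those of miR-127* and miR-434* in females. With undetected values at each array's lowest detected value, the log2 difference between young and adult rats was -0.42 for miR-433 in males, and in females miR-127* (0.35) and miR-434* (0.58) were not called. Under normexp background correction, with an offset of 50, 3 members in females and 4 in males were called higher in young than in adult rats, where 3.5% and 5.1% of the expressed miRNAs were, and miR-337*, miR-431, miR-433, miR-127*, miR-434* and miR-341 had log2 differences below 0 in both sexes. For single members the fold change is therefore given as a lower bound, with each array of the dim group set at the lowest value that it detected.

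Between adult and old rats the members had hardly any detected value to compare. Each member was detected on at most 1 array of an age class in either sex, so the result was set by the floor. The limma test called 0 of 10 members in either sex, with 0 members at an unadjusted p under 0.05, where 4.46% of the expressed miRNAs were called in females and 5.1% in males, so the 0 of 10 lies near the background. Across the 9 ages, the F test of limma passed the adjusted threshold for 9 members in females and 10 in males, where 61.8% and 56.1% of the expressed miRNAs passed. Each of the 8 older ages was also compared with 2 weeks, and the same counts of 9 members in females and 10 in males were called at every one of them, where 31.8% to 51.3% of the expressed miRNAs were called in either direction in females and 44.6% to 50% in males. Every member called was higher at 2 weeks, whereas these shares count both directions. The 8 comparisons set the same 2-week arrays against values almost all at the same floor, so they are not 8 separate results.

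miR-337*, from the first hairpin of the cluster along the chromosome, gave a low signal in every 2-week liver. Its normalized signals in females 1, 3, 4, 5 and 6 were 0.151, 0.115, 0.125, 0.126 and 0.107, and in males 1 to 5 they were 0.210, 0.189, 0.286, 0.246 and 0.216. Every male was above every female. miR-337* was at least 2.94-fold higher in young than in adult females and at least 3.77-fold in males, and its log2 difference between the sexes at 2 weeks was 0.88 ± 0.13 (males minus females, SE from limma on the 2-week arrays alone). The model of all 88 arrays gave an SE of 0.05 for it, because this miRNA was at the floor on every later array and so had no spread there.

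miR-431, the first member within the span of Rtl1, was as tightly grouped. Females had normalized signals of 0.125, 0.114, 0.118, 0.115 and 0.102, and males had 0.311, 0.226, 0.291, 0.307 and 0.265. The groups did not overlap, and miR-431 was 2.43-fold higher in males. Against adults it was at least 2.72-fold higher in young females and at least 4.62-fold in young males.

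miR-433, the next member along the chromosome, was at the edge of detection. It was undetected in all 5 females and was detected in males 1, 2, 4 and 5, at 0.0412, 0.0415, 0.0426 and 0.0341, whereas male 3 was undetected. At this age the male mean was at least 1.23-fold that of the females. No fold change against adults is given, because the male mean was below the average of the lowest values that the adult male arrays detected.

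miR-127 is the member best known as an antisense regulator of Rtl1, and it was detected strongly in all 10 young livers. The females had 0.904, 1.07, 0.663, 1.07 and 0.733, and the males had 1.97, 2.26, 1.89, 1.90 and 1.79. The sexes did not overlap, with a 2.25-fold higher mean in males. Compared with adults, miR-127 was at least 19.1-fold higher in young females and at least 31.6-fold in young males.

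Its partner arm miR-127* was detected in females 1, 3 and 5, at 0.0724, 0.0733 and 0.0647, and in males 1, 2, 4 and 5, at 0.154, 0.146, 0.172 and 0.134. The remaining 2 females and male 3 were undetected, so the 4 detected males were above the 3 detected females while the others could not be placed. Over the livers in which it was detected, the mean was 2.16-fold higher in males. miR-127* was at least 1.51-fold higher in young than in adult males. Against adult females no fold change is given, because the bound was below 1.

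miR-434 was closely grouped in young females. Their values were 1.99, 2.05, 1.83, 1.96 and 1.90, against 3.24, 3.52, 3.08, 3.01 and 2.81 in the males. Again every male was above every female, and the mean was 1.61-fold higher in males. miR-434 was at least 42.0-fold higher in young than in adult females and at least 50.1-fold in males.

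The other arm, miR-434*, was detected in 4 of 5 females at 0.0769, 0.0678, 0.0774 and 0.0686, with female 6 undetected. In the males it was 0.150, 0.198, 0.240, 0.163 and 0.174. The detected values did not overlap, and the male mean was 2.52-fold that of the 4 females with a detected value. miR-434* was at least 1.20-fold higher in young than in adult females and at least 3.03-fold in males.

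miR-136 had values of 1.28, 0.888, 1.17, 1.0 and 1.10 in females and of 2.80, 2.19, 5.86, 2.52 and 2.54 in males. Male 3 was about as far above the other males as these were above the females. The mean was 2.75-fold higher in males. Compared with adults, miR-136 was at least 22.8-fold higher in young females and at least 46.1-fold higher in young males.

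miR-136* was 0.770, 0.659, 0.503, 0.75 and 0.663 in the females and 1.11, 1.12, 0.807, 1.11 and 1.13 in the males. Here male 3 was the lowest of the males, although it remained above every female. The mean was 1.58-fold higher in males, the lowest ratio among the 6 members detected in all 10 young livers. It was at least 14.7-fold higher in young than in adult females and at least 17.4-fold in males.

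miR-341, a rodent miRNA in which GGUC occurs 3 times, lies downstream of the others. It was detected in females 1, 3, 4 and 5 at 0.0783, 0.0868, 0.0723 and 0.0777 and not in female 6. The males had 0.264, 0.242, 0.220, 0.274 and 0.240. The detected values did not overlap, and the male mean was 3.15-fold that of the 4 females with a detected value. Against adults, miR-341 was at least 1.28-fold higher in young females and at least 4.11-fold in young males.

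**Figure D2:**
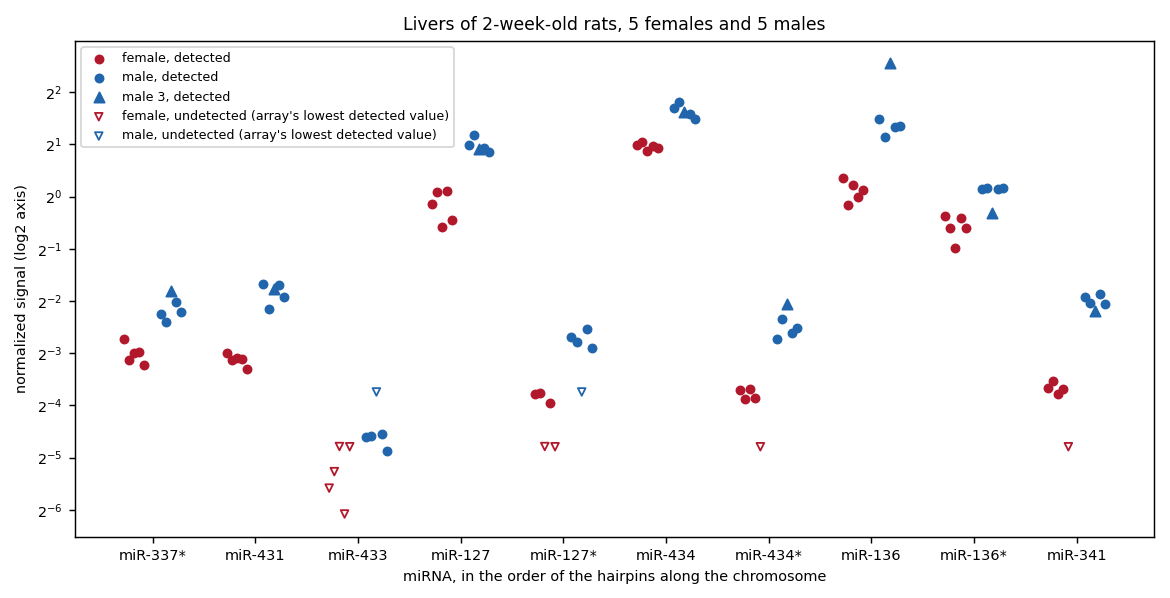
Normalized signal (log2 axis) of the 10 miRNAs in the livers of 5 female (red) and 5 male (blue) 2-week-old rats, in chromosomal order, where open triangles mark undetected miRNAs at the lowest value detected on that array and filled triangles mark male 3. Detected males stand above detected females for each miRNA found in both, and male 3 departs upward for miR-136 (5.86) and downward for miR-136* (0.807).

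Sex was compared at 2 weeks in 1 limma model of all 88 arrays. Of the 10 members, 9 were called and all 9 were higher in males, where 11.1% of the 314 expressed miRNAs were called higher in males, 7.64% lower and 18.8% in either direction. With undetected values at the floor, the median log2 difference was 1.33 over the members and -0.12 over all expressed miRNAs. On the same values, every male was above every female for 8 members, as was the case for 8.28% of the expressed miRNAs. For the 6 members detected in all 10 young livers, each of the 12 probes, 2 for each miRNA, had a higher mean normalized spot signal in males, with log2 ratios from 0.61 to 1.75.

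The member not called was miR-434 (log2 difference 0.68 ± 0.37 SE, limma adjusted p = 0.17), although its sexes did not overlap at 2 weeks. In this model the spread of a miRNA was estimated over all ages, and miR-434 had single high arrays at 5 weeks, whereas miR-337* and miR-431, which were undetected at every later age, had an SE of 0.05 and 0.04. A limma fit of the 10 arrays of 2-week-old rats alone called 9 members as well, where 8.28% of the expressed miRNAs were called higher in males. In this fit miR-434 was called (adjusted p = 7.29e-05, limma), and miR-127* was not (adjusted p = 0.35, limma). The other adjusted p-values of that fit were 0.0011 for miR-337*, 6.11e-05 for miR-431, 0.016 for miR-433, 0.00051 for miR-127, 0.028 for miR-434*, 0.0032 for miR-136, 0.0072 for miR-136* and 0.015 for miR-341, all from limma.

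The size of the male excess depended on the scaling. When arrays were scaled on the 103 miRNAs detected on all of them, the median difference of all expressed miRNAs moved from -0.12 to 0.05, all 10 members were called higher in males, and 14.6% of the expressed miRNAs were higher and 0.955% lower. When they were scaled on the 75th percentile over all miRNAs of the array, 6 members were called higher, where 10.5% of the expressed miRNAs were, and miR-127, miR-136 and miR-136* were not called (limma adjusted p = 0.073, 0.089 and 0.052). Without any scaling the median was -0.22 and 7 members were called higher in males, where 7.96% of the expressed miRNAs were. On unscaled signals 0 members had every male above every female, on arrays whose 75th percentile ranged from 28.1 to 289. Under normexp background correction 2 members were called higher, where 1.59% of the expressed miRNAs were. Under each of the alternatives run, the difference of every member was above 0. Within scan 4 (1 male and 2 females) the 8 members detected on all 3 arrays were higher in the male by 0.54 to 1.6 on the log2 scale, and within scan 5 (1 male and 2 females) 9 members were higher by 0.45 to 1.63.

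**Figure D3:**
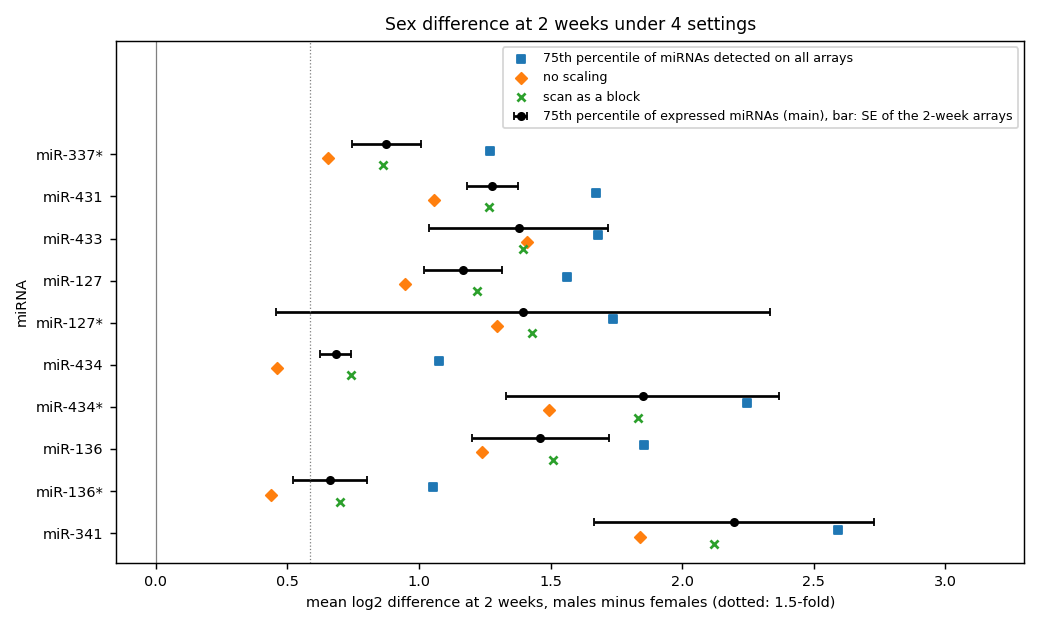
Mean log2 difference between males and females at 2 weeks (horizontal axis) for each of the 10 miRNAs (vertical axis), with the value scaled on the 75th percentile of expressed miRNAs and its SE from limma on the 2-week arrays alone in black, and 3 other settings in colour. All values lie above 0, from 0.44 for unscaled miR-136* to 2.59 for miR-341 scaled on the miRNAs detected on all arrays.

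Other miRNAs also differed between the young males and females. Of 30 miRNAs that mark hepatocytes or 7 other cell types and tissues, miR-122 and the leukocyte miRNA miR-150 were called, both lower in males, where 7.64% of the expressed miRNAs were called lower. miR-122, the defining miRNA of hepatocytes, was detected on all 88 arrays and was 0.63 lower on the log2 scale in 2-week males (limma adjusted p = 6.60e-06), and the summed signal of 3 hepatocyte miRNAs was 560 to 674 in the females and 399 to 428.9 in the males. For the 103 miRNAs found on every array, the mean log2 signal was 1.20 to 1.39 in the females and 0.79 to 0.99 in the males. None of 5 miRNAs that mark stellate and mesenchymal cells was called (sums of 11.8 to 14.03 in females and 8.96 to 12.8 in males), nor was any of 5 skeletal muscle miRNAs (sums of 0 to 5.27 and 0 to 2.89), and the neuronal miR-9 and miR-124 were detected on no array. The part of these shifts in the male excess was not tested.

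From 5 to 104 weeks of age no sex difference was called for any member at any age (0 of 80 pairs of member and age, limma, with 2 pairs at an unadjusted p under 0.05), where 4.5% of the pairs of all expressed miRNAs were called. In most of the 80 pairs both sexes were wholly undetected and at the same floor, so no difference could be found there. The fit of each age's own arrays and the methods' t-test also called 0 pairs, whereas 1 was called with mean processed spot signals, 1 with no filter and 10 with undetected values at each array's lowest detected value. The interaction of sex with the fall from 2 weeks to adult age passed the threshold for 9 members, all with the larger fall in males, where 11.1% of the expressed miRNAs were called in that direction and 21.3% in either. Both sexes were undetected on almost all later arrays, and with undetected values at each array's lowest detected value 1 member passed in place of 9.

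The ratio between the arms of 1 hairpin does not depend on the scaling of an array and was therefore compared between the sexes at 2 weeks, on arrays with both arms detected. The ratio of miR-127 to miR-127* was 12.5, 14.6 and 16.6 in females 1, 3 and 5 and 12.8, 15.5, 11.1 and 13.4 in males 1, 2, 4 and 5. The ranges overlapped, and the mean log2 ratio was 3.85 ± 0.20 in females (SD, n = 3) and 3.71 ± 0.20 in males (SD, n = 4), a difference of -0.14 (exact permutation test, two-sided, p = 0.46 and adjusted p = 0.46 over 3 hairpins). The smallest p that these numbers allow is 0.057, so this ratio could not pass 0.05.

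The ratio of miR-434 to miR-434* was lower in males. It was 25.9, 30.3, 23.6 and 28.5 in females 1, 3, 4 and 5, and 21.6, 17.8, 12.8, 18.4 and 16.2 in males 1 to 5, with no overlap. The mean log2 ratio was 4.75 ± 0.16 in females (SD, n = 4) and 4.10 ± 0.28 in males (SD, n = 5), a difference of -0.66 (exact permutation test, two-sided, p = 0.016, adjusted p = 0.048), where this p is the smallest that these numbers allow. Within scans 4 and 5 the difference was -0.73 and -0.61. Under normexp background correction it was 0.21, so the direction depended on the background correction.

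The ratio of miR-136 to miR-136* was higher in males. It was 1.67, 1.35, 2.32, 1.33 and 1.65 in females 1, 3, 4, 5 and 6 and 2.53, 1.95, 7.26, 2.28 and 2.25 in males 1 to 5, with female 4 above 3 of the males. The mean log2 ratio was 0.70 ± 0.32 in females (SD, n = 5) and 1.5 ± 0.77 in males (SD, n = 5), a difference of 0.80 (exact permutation test, two-sided, p = 0.032, adjusted p = 0.048). Without male 3 the difference was 0.46 (exact permutation test, adjusted p = 0.095), and within scans 4 and 5 it was 0.35 and 0.39. Leaving out 1 array took the adjusted p past 0.05 in 9 of 10 cases for miR-136, with differences from 0.46 to 0.94. For miR-434 it did so in all 9 cases, with differences from -0.74 to -0.55, and each time the unadjusted exact p was the smallest that the remaining arrays allow (0.029 or 0.036).

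**Figure D4:**
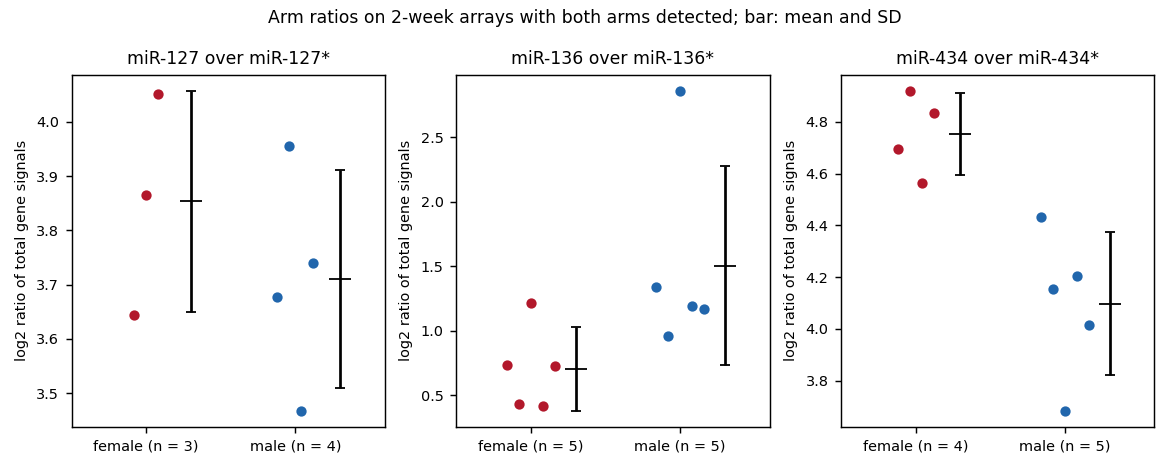
Log2 ratio of the total gene signals of both arms (vertical axis) on each 2-week array with both arms detected, for miR-127, miR-136 and miR-434, with females in red, males in blue and the mean and SD in black. The sexes overlap for miR-127 and miR-136, where male 3 stands apart at 2.86, and do not overlap for miR-434.

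Only 3 arrays of older rats had any member detected. In 5-week female 2 these were miR-127 at 0.150, miR-434 at 0.225, miR-136 at 0.373 and miR-136* at 0.110, and in 5-week male 1 they were miR-127 at 0.125, miR-434 at 0.143 and miR-136 at 0.309. Each of these values was below every 2-week value of the same miRNA. In 78-week female 1 only miR-341 was detected, at 0.0860, within the range of the 2-week females.

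The same 2 arrays of 5-week rats had the highest levels of skeletal muscle miRNAs at that age. The summed signal of miR-1, miR-133a, miR-133b, miR-206 and miR-499 was 21.2 in female 2 and 17.3 in male 1, against 0 to 1.70 in the other 7 rats of 5 weeks. The sum of the erythroid miR-144 and miR-451 was 19.1 and 12.4 on these arrays and 6.67 to 12.2 on the others. High muscle signal also occurred where no member was detected, up to 65.6 in 15-week male 2 and 17.4 in 78-week male 3. Female 2 also had 12 other miRNAs of the list for the Dlk1-Dio3 region detected, against 1 or 2 on the other 5-week arrays, including male 1. The part of muscle RNA in these values was not tested.

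When 5 weeks was compared with 6 to 21 weeks, limma called miR-136 and miR-434 higher in females (adjusted p = 0.0499 for both), where 3.5% of the expressed miRNAs were called higher, and miR-127, miR-136 and miR-434 higher in males (adjusted p from 0.032 to 0.036), where 3.82% were called higher. Without 5-week female 2 and without 5-week male 1, 0 members were called, and in females this was also so without any 1 of the 20 arrays at 6 to 21 weeks. With scan as a block 0 members were called in either sex. The direction in males also depended on the floor, as 7 members were called lower at 5 weeks with undetected values at each array's lowest detected value or at the lowest raw signal, where 34.1% and 27.7% of the expressed miRNAs were called lower. With mean processed spot signals 6 were called lower, where 20.1% were.

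On arrays where a member was undetected, its spots could still be read against other undetected miRNAs. As a reference, each array's 95th percentile was taken over the mean spot signals of the 363 miRNAs that were detected on no array. Among the arrays on which it was undetected, miR-434 was above this reference on 5 of 7 at 5 weeks, on 1 of 10 at 6 weeks and on 0 at later ages. miR-127 was above it on 0 of 7 such arrays at 5 weeks and 4 of 10 at 6 weeks, and on 0 later. miR-136 was above it on 7 of 7 at 5 weeks, 8 of 10 at 6 weeks, 7 of 10 at 8 weeks and 3 of 9 at 104 weeks, whereas miR-431 was above it on no array after 2 weeks. These are values of single probe sets on arrays where the miRNA was called undetected, and they carry no test.

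**Figure D5:**
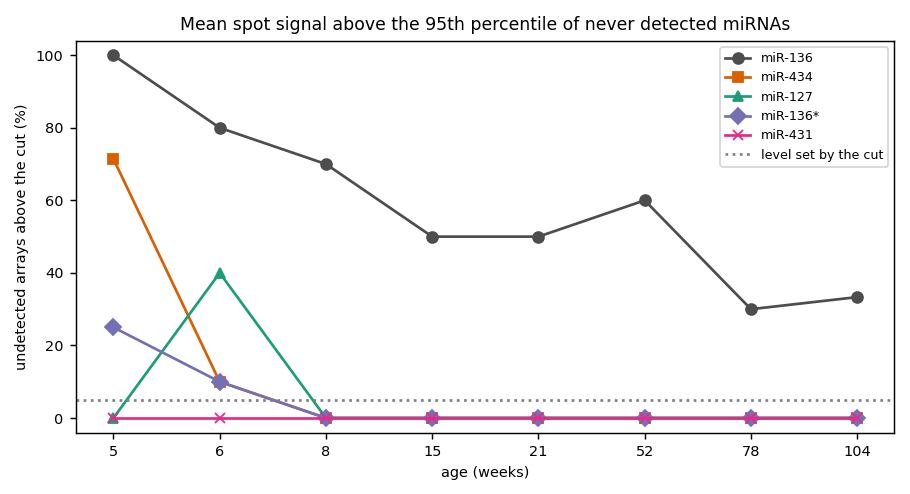
Percentage of the arrays without detection of a miRNA (vertical axis) at each age from 5 to 104 weeks (horizontal axis) on which its mean spot signal was above the 95th percentile of miRNAs detected on no array. miR-434 falls from 5 of 7 arrays at 5 weeks to 0 from 8 weeks, miR-136 stays above the dotted 5% level at every age, and miR-431 is at 0 throughout.

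Among the other miRNAs on the list for the Dlk1-Dio3 region, 41 of 75 on the array were expressed, of which 25 were detected at 2 weeks only, 16 also or only on an older array, and 19 on all 10 arrays of 2-week-old rats. Of these 41, 25 were called higher in young than in adult females and 31 in males, with 0 lower, where 16.9% and 19.7% of the expressed miRNAs were called higher. Those detected at 2 weeks only could not come out lower in young rats, as their later values were all at the floor. Between the sexes at 2 weeks, 25 of the 41 were called higher in males, with 0 lower, where 11.1% of the expressed miRNAs were called higher. The median log2 difference of the 41 between the sexes was 0.94. Every 2-week male was above every female for 17 of the 41, as was the case for 8.28% of the expressed miRNAs.

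The immediate neighbours of the cluster were mostly undetected. miR-337, the other arm of miR-337*, was detected in all 10 young livers, with a mean normalized signal of 0.332 ± 0.090 in females and 0.625 ± 0.058 in males (SD, n = 5 each). miR-370 was detected in 3 males at 2 weeks only, miR-770* only on 4 arrays of older rats, and miR-370*, miR-433*, miR-493, miR-493*, miR-540, miR-540*, miR-665, miR-673, miR-673* and miR-770 on no array. The hairpins of these miRNAs flank Rtl1 or lie among the members.

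The miRNAs with the pattern most like the mean of the cluster, by Pearson correlation over the 18 group means of age and sex, were miR-376b-5p, miR-495, miR-337, miR-382 and miR-376a, with r from 0.9966 to 0.9976. All 5 belong to the Dlk1-Dio3 region. Because nearly all variation lay between 2 weeks and later ages, any miRNA detected at 2 weeks and not later had a high value, and among the members r ranged from 0.79 for miR-433 to 0.9976 for miR-431. These are descriptions, as the group means share arrays and scaling.

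Of 9 imprinted miRNAs of other regions, from the H19, Igf2, Mest and Nespas loci, 5 were detected on any array. Of these 5, 4 were called higher in young than in adult females and 5 in males, where 16.9% and 19.7% of the expressed miRNAs were called higher. Detection on arrays of older rats was rare for miR-675* (2 arrays) and miR-296* (1 array). miR-675*, made from H19, was at least 18.8-fold higher in young than in adult females and at least 12.4-fold in males, and miR-483, made from Igf2, at least 28.8-fold and 24.6-fold. miR-335, made from Mest, was detected on all 88 arrays and was 2.30-fold higher in young females and 3.17-fold in young males. None of these 3 was called between the sexes at 2 weeks, with log2 differences of -0.11 ± 0.19, 0.17 ± 0.56 and 0.16 ± 0.13 (SE, males minus females, limma adjusted p = 0.84, 1 and 0.46). Of the rest, miR-296* was called higher in 2-week males than in females (4 of 5 detected, against 2 of 5 females), miR-483* was not, and miR-296, miR-298, miR-298* and miR-675 were detected on no array. Whether the sex difference of the cluster differed from that of these miRNAs was not tested.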

How the data were processed

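The authors scanned 88 one-colour Agilent arrays, read them with Feature Extraction (version 10.7.3.1 per the file headers) and deposited, for each array, spot signals and a summed signal per miRNA (total gene signal) as linear intensity, with 0.1 for an undetected miRNA. They also deposited a table of ratio values, the signal divided by the array's 75th percentile with undetected values at 1 floor, as in their methods. No target spot was saturated.

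The total gene signals were divided by each array's 75th percentile over the 314 expressed miRNAs (rank 236), undetected values were set to 0.0120, and log2 values were tested. The result was set against the deposited table, from which 1 value of 15763 departed by over 0.01 percent, and it was no member. limma 3.58.1 in R 4.3.3 compared young (2 weeks old), adult (aged 5 to 21 weeks) and old rats (from 52 to 104 weeks) within each sex, and the sexes at each age in 1 model of 18 groups, at a Benjamini-Hochberg adjusted p under 0.05 over all expressed miRNAs and at least 1.5-fold. On simulated data in which 60 of 314 miRNAs were changed, 85.0% to 88.3% were recovered in 4 comparisons. Arm ratios were compared with exact permutation tests (scipy 1.17.1).

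Alternatives were other scalings, background corrections, floors and filters, the authors' ratio table, blocks for scan, slide and replicate number, the methods' t-test (SAS models in the paper) and each array left out. Normexp used the median spot signal and an offset of 50. Scans were parted where over 8 hours lay between arrays, which gave 5 scans on 13 slides, and the authors' processing days could not be matched to samples here. Depth has no meaning for these arrays, and their number limits the precision. Each array was 1 animal. Named miRNAs were all 10 members, the 5 most alike in pattern, the neighbours of Rtl1, imprinted miRNAs of other regions and miR-122. The members, lists and tests were chosen with earlier results of these data known. Sequences and positions are from RefSeq GRCr8, and no coordinates of the array's design were used.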

Additional observations from a re-analysis of the deposited data

Results flagged for a closer look

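Livers that stood apart from their group were looked for by Dixon's ratio in the 14 groups of a member with every array detected, and in 5 groups of arm ratios. Chance alone marks about 1 in 20 groups. The liver of 2-week male 3 was marked 3 times. Its miR-136 (normalized signal 5.86) was far above the other 4 males, its miR-136* (0.807) was far below them, and its log2 ratio of miR-136 to miR-136* was 2.86. This array had the lowest 75th percentile of all 88 (28.1) and 165 miRNAs detected, the fewest of the 2-week arrays. Its part in these values was not tested. Without it, 8 members in place of 9 passed the interaction test below.

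The change from 2 weeks to adult age differed between the sexes by the interaction test of limma for 9 members. The excess of the male fall on the log2 scale was 1.46 for miR-136, 1.28 for miR-431, 1.17 for miR-127, 0.88 for miR-337* and 0.79 for miR-136*, which were detected in all 2-week livers. With undetected 2-week values at the floor it was 2.20 for miR-341, 1.85 for miR-434*, 1.40 for miR-127* and 1.38 for miR-433, and these values depend on the floor and are not sizes of a difference. As values from 5 weeks on were mostly at the floor, the excesses are nearly those of the sexes at 2 weeks. The count of 9 fell to 1 when undetected values were set at each array's lowest detected value.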

How the results depend on the processing

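The offset of 50 in normexp background correction exceeds the median spot signals of the 6 weaker members at 2 weeks (2.80 to 22.3). This correction lowered the members called to 3 (females) and 4 (males) for young against adult, 4 and 4 for young against old, 5 and 4 for the F test, 2 for the sexes at 2 weeks, 1 for the interaction and 0 and 0 for 5 against 6 to 21 weeks. The interaction fell to 1 member with mean processed spot signals and with undetected values at the array's lowest, and to 4 with them at the lowest raw signal before scaling. For the sexes at 5 to 104 weeks, 1 pair was called with mean processed signals, 1 with no filter and 10 with undetected values at the array's lowest.

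For 5 against 6 to 21 weeks in females, 4 members were called with slide as a random block and with the filter of at least 10 arrays, 1 with undetected values at the array's lowest, and 0 with scan as a block, no filter, no scaling, and both other 75th percentiles. In males the calls turned to lower at 5 weeks, with 7 members under both other floors and 6 with mean processed signals, and were 0 with scan as a block, no scaling and the 75th percentile over all miRNAs. With the replicate number as a block, 0 members were called at 5 weeks in females and 2 in males, while the other counts stayed within 1.5 times. Of 33 male and female pairs of 1 age and number, 17 had deviations correlated above 0.1, so the numbers were not taken as pairing.

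Differences that changed sign belonged to weak members. Under normexp, young minus adult was -0.32 (females) and -0.24 (males) for miR-127*, -0.18 and -0.14 for miR-337*, -0.27 and -0.083 for miR-341, -0.20 and -0.0080 for miR-431, -0.29 and -0.18 for miR-434*, and -0.38 in males for miR-433. Young minus old was -0.20 and -0.12 for miR-127*, -0.070 and -0.020 for miR-337*, -0.17 in females for miR-341, -0.077 in females for miR-431, -0.18 and -0.077 for miR-434*, and -0.29 in males for miR-433. miR-433 was also lower at 2 weeks than in adult females with mean processed signals (-0.73) and with undetected values at the array's lowest (-0.73) or at the lowest raw signal (-1.06), than in old females under the last (-0.71), and than in adult (-0.42) and old (-0.071) males under the array's lowest. The log2 difference in the miR-434 arm ratio was 0.21 under normexp (exact permutation test, adjusted p = 0.52). The cause of these changes was not tested beyond the settings' own construction.

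Leaving out each array in turn gave 9 members (females) and 10 (males) for young against adult, young against old and the F test, and 0 for adult against old and for the sexes from 5 weeks on. It gave 8 to 9 for the sexes at 2 weeks (8 without 2-week female 4), 8 to 10 for the interaction, 0 to 4 (females) and 0 to 3 (males) for 5 against 6 to 21 weeks, and differences in arm ratio of -0.25 to -0.04 for miR-127, 0.46 to 0.94 for miR-136 and -0.74 to -0.55 for miR-434. The number of arrays, 4 or 5 in a group, and the detection limit of each array, 0.0120 to 0.137 in normalized signal, bound what can be said of the weak members.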
